A study of Felis catus with 8 samples.

Results

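Liver arrays of male cats were examined for 6 genes that activate, inactivate, carry or answer to thyroid hormone: the deiodinases DIO1, DIO2 and DIO3, the plasma carriers TTR and SERPINA7, and the responsive gene THRSP. The members were all probe sets that the array's annotation assigns to exactly 1 gene, that gene being 1 of these 6. This gave 38 of 257101 probe sets and 6 of 18701 genes. Of the 38 probe sets, 24 passed a filter on low signal (a mean over all arrays above log2 2.43), and each of the 6 genes kept at least 1. DIO2 was selected on its own log2 values in these same arrays, where it had been seen to rise with monosodium glutamate (MSG), so its MSG values are a description with no test. The other members were chosen for their role in the same pathway.

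Thyroid hormone leaves the thyroid mainly as thyroxine, a precursor with little activity at its nuclear receptors. DIO2 removes an iodine from the outer ring and makes the active hormone triiodothyronine inside the cell, DIO1 does so in liver and kidney and also clears other iodothyronines, and DIO3 inactivates the hormone by removing an iodine from the inner ring. In adult mammalian liver DIO1 is usually the main deiodinase, while DIO2 is best known from brown fat, pituitary and brain, where its transcription responds to cyclic AMP (cAMP).

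The 4 diets were a standard chow (control), the same chow with 1.125% MSG, a diet with 8.6% trans fat and 24% high-fructose corn syrup (trans-fat/HFCS), and that diet with 1.125% MSG added (combined). The dams ate the diet from 3 weeks before mating through nursing, and their sons were weaned onto it and kept on it to 9 months of age, the age of all cats here. RNA came from 4 to 5 livers per diet, and 2 arrays per diet were analysed here, numbered as separate biological replicates. The labels do not say whether RNA was pooled or which cats were littermates, so the spread between arrays may not be the spread between litters. All cats were male, no diet group was exposed only before or only after birth, and the 2 diets on the trans-fat/HFCS base differ from chow in more than 1 ingredient. The arrays carry human probes, so a probe set reports cat RNA only as far as the sequences match, and its level cannot be set against that of another probe set.

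The arrays had near-equal scale, with median intensities of 5.25 to 5.28. Arrays of the same diet correlated at r = 0.946 to 0.968 over the 17910 gene means, and arrays of different diets at 0.917 to 0.956. The tissue label was checked against 12 hepatocyte markers, whose mean lay between log2 8.11 and 8.29 on every array. A list of 18 skeletal muscle markers stood at 3.65 to 3.73 on 6 arrays but at 5.25 and 5.30 on the trans-fat/HFCS arrays. The comparisons that use those 2 arrays are therefore also given without them where that matters, and the part of this signal in them was not tested. In whole tissue, fewer cells of a type and less RNA per cell cannot be told apart.

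DIO2, the activating deiodinase, was highest on the MSG diet. Its mean log2 intensity over 7 kept probe sets was 3.36 and 3.34 on the control arrays, 5.16 and 5.43 on the MSG arrays, 3.18 and 3.03 on the trans-fat/HFCS arrays and 3.39 and 3.61 on the combined arrays. Both MSG arrays lay above all 6 others, both trans-fat/HFCS arrays lay below all others, and the combined arrays lay just above control. In the order of the diet means, MSG stood at 5.30 ± 0.20 (SD, n = 2), combined at 3.50 ± 0.15, control at 3.35 ± 0.01 and trans-fat/HFCS at 3.10 ± 0.11. Control and combined are neighbours whose difference, 0.15 on the log2 scale, was no larger than the SD of the combined arrays.

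The MSG difference in DIO2 was large on chow and small on the trans-fat/HFCS base. The MSG arrays exceeded control by 1.94 on the log2 scale (SE 0.18), or 3.84-fold; this was 1.29 on log2(intensity + 16) and 4.64 with the brightest probe set alone. The combined arrays exceeded the trans-fat/HFCS arrays by 0.40 (SE 0.18), or 1.32-fold. The average of both was 1.17 (SE 0.12), or 2.25-fold, and the second minus the first was -1.54 (SE 0.25). Thus the averaged MSG value describes neither base diet by itself. Without the trans-fat/HFCS arrays, the difference on chow, 1.94, was the one left to measure.

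DIO2 was also lower on the 2 diets with trans fat and HFCS than on the 2 chow diets, by 1.02 on the log2 scale (SE 0.12). Among all genes, 7.66% passed the adjusted threshold of 0.05 in that comparison (limma), and DIO2 was 1 of them, while 0 of the 5 other members were. This difference rests on the MSG arrays for which DIO2 was chosen and supports nothing further. It came from the combined arrays lying 1.79 below the MSG arrays (3.47-fold), whereas the trans-fat/HFCS arrays lay 0.25 below control. In a model with 2 factors and no interaction DIO2 no longer passed the threshold, and with its brightest probe set alone it did not either (-0.84, limma adjusted p = 0.23).

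**Figure D1:**
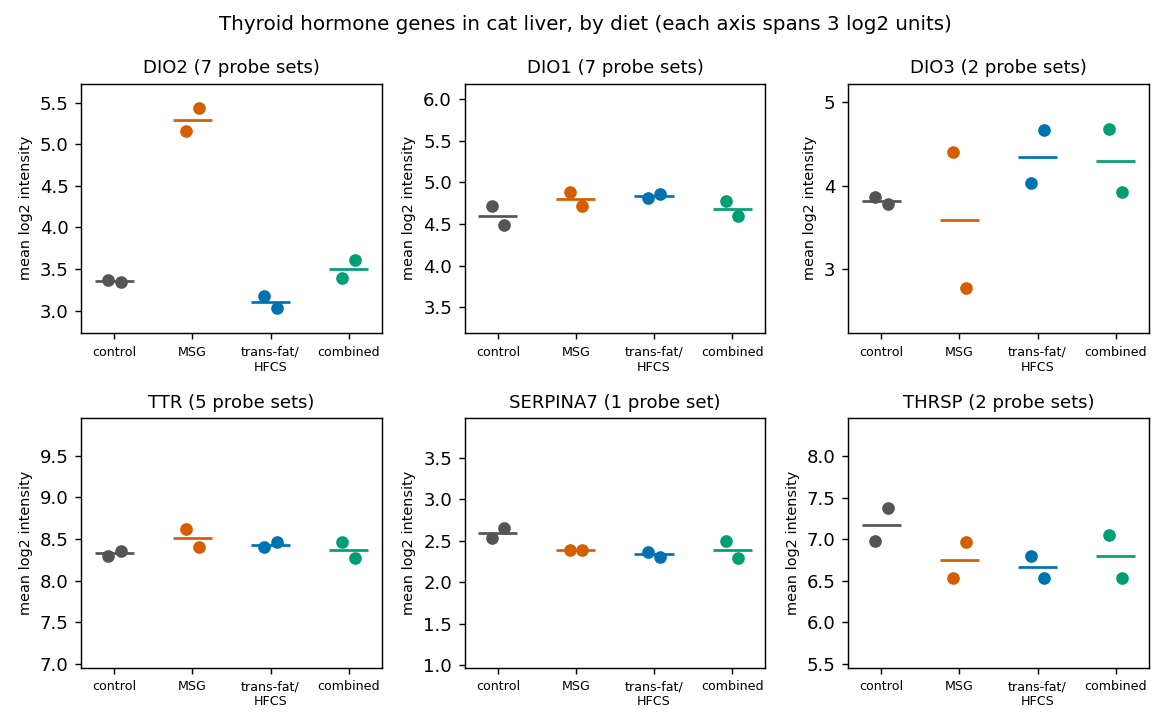
Mean log2 intensity over kept probe sets (y axis) of the 6 thyroid hormone genes on each of the 8 arrays, by diet (x axis), each axis spanning 3 log2 units. The 2 MSG arrays of DIO2, at 5.16 and 5.43, stand above the other 6, which lie between 3.03 and 3.61, while the arrays of DIO1, TTR, SERPINA7 and THRSP lie close together and those of DIO3 on the MSG diet spread from 2.77 to 4.41.

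The probe sets of DIO2 did not move alike. On probe set 7980495 the log2 intensity was 2.73 and 2.93 on control, 7.54 and 7.40 on MSG, 5.04 and 3.17 on trans-fat/HFCS and 4.77 and 4.25 on combined arrays. In the deposited linear unit these are intensities of 6.65 and 7.63 on control against 187 and 169 on MSG. The MSG arrays stood apart from all others here, and both combined and both trans-fat/HFCS arrays also lay above both control arrays.

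On probe set 7980493 the control arrays read 2.66 and 1.87, the MSG arrays 6.46 and 7.39, the trans-fat/HFCS arrays 2.75 and 2.63 and the combined arrays 2.91 and 4.00. On probe set 7980492 the same order of diets gave 3.57 and 4.41, then 6.16 and 6.73, then 2.95 and 2.50, then 2.81 and 5.02. Both therefore had the MSG arrays on top, with the combined arrays apart from each other. Probe set 7980489 read 4.19 and 3.96 on control, 5.88 and 6.21 on MSG, 2.84 and 3.39 on trans-fat/HFCS and 5.18 and 4.41 on combined arrays. It was the kept probe set with the largest excess of combined over trans-fat/HFCS, 1.68.

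The remaining 3 kept probe sets differed from these. Probe set 7980488 read 3.88 and 4.89 on control and 5.20 and 5.55 on MSG, an excess of 0.98, but on the trans-fat/HFCS base the order turned, with 3.86 and 4.76 without MSG and 2.83 and 2.49 with it. Probe set 7980490 read 4.20 and 2.59 on control against 2.38 and 2.29 on MSG. Probe set 7980491 stayed between 2.29 and 2.90 on all 8 arrays, near the filter. A further probe set under the filter, 7980494, read 1.73 and 1.66 on control and 3.31 and 3.37 on MSG, with the other 4 arrays between 1.75 and 2.02.

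Across the 7 kept probe sets the excess of MSG over control thus ran from -1.06 to 4.66 on the log2 scale. Both MSG arrays were above both control arrays in 5 of 7, below in 1 and overlapping in 1. The value of -1.06 and the 1 below are those of 7980490, which stood well above the filter on control 1 only. Over all kept probe sets of the array both MSG arrays were above in 18.2% and below in 18.5%; the rule chose DIO2 on this contrast, so nothing is read from the comparison. On the trans-fat/HFCS base, both combined arrays were above both trans-fat/HFCS arrays in 2 of 7 kept probe sets (18.6% over the array) and below in 1 (17.9%). Probe sets 7980489, 7980492, 7980493, 7980494 and 7980495 correlated with each other at r = 0.71 to 0.98 over the 8 arrays, which share the same RNA and the same MSG contrast. Leaving out 1 kept probe set at a time gave an averaged MSG difference of 0.91 to 1.43.

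**Figure D2:**
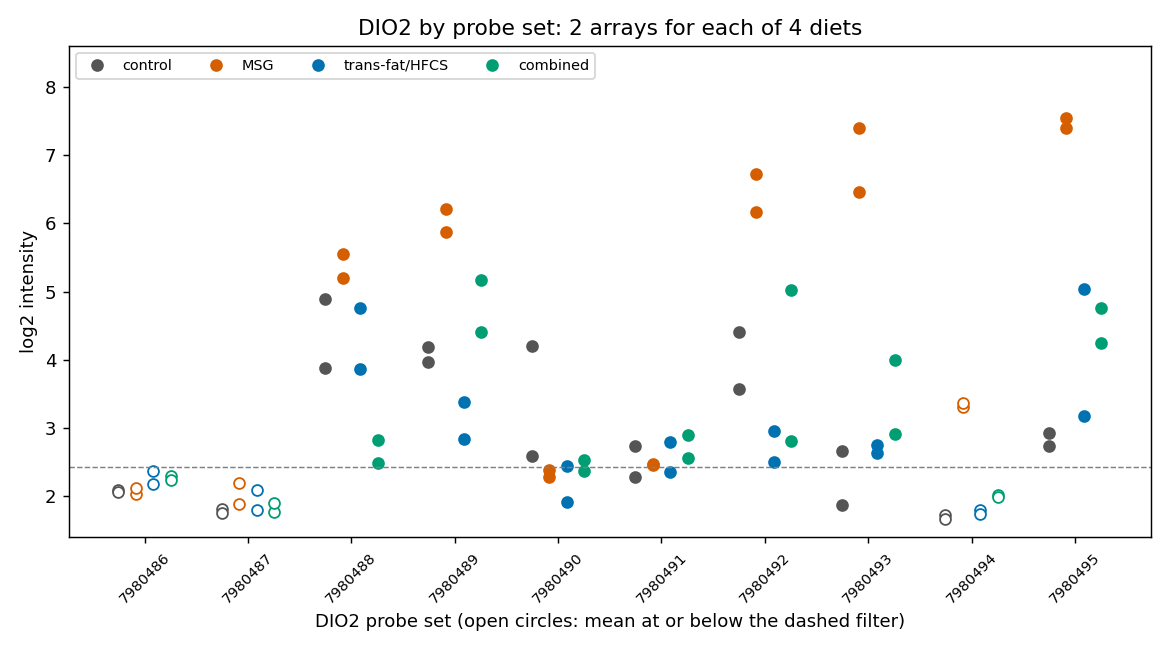
Log2 intensity (y axis) of each DIO2 probe set (x axis) on the 8 arrays, coloured by diet, with open circles for probe sets under the dashed filter line. Probe sets 7980493 and 7980495 rise by 4.66 and 4.64 from control to MSG, while 7980490 and 7980491 do not rise.

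Markers of tissues in which DIO2 is best known were listed beside these values. The mean of 7 brown adipocyte markers, all of those listed, lay between 3.64 and 3.93 on all arrays, and UCP1, the uncoupling protein that defines brown fat, read 3.18 and 3.17 on control, 3.08 and 3.34 on MSG, 3.85 and 4.38 on trans-fat/HFCS and 4.24 and 3.78 on combined arrays. UCP1 was thus lowest on the 4 chow arrays, as was CIDEA. EBF2 went the other way and was highest on the control arrays, at 4.38 and 4.47. PPARGC1A, ELOVL3, PRDM16 and COX7A1 did not have the order of UCP1. In the averaged trans-fat/HFCS difference 1 of the 7 brown adipocyte markers was called higher. The mean of 6 of 7 listed pituitary markers was 3.67 and 3.65 on control, 3.61 and 3.77 on MSG, 4.02 and 3.93 on trans-fat/HFCS and 3.85 and 3.83 on combined arrays, with 1 of the 6 called higher in that difference. The mean of 8 of 9 listed thyroid follicular cell markers lay between 3.39 and 3.67 on all arrays. None of the marker genes of these 3 lists passed the limma threshold as higher in the averaged MSG difference. The other 8 marker lists had no such gene either. Called lower in that difference were 9 of the 18 skeletal muscle markers, where 0.285% of all genes were. In the averaged trans-fat/HFCS difference 11 of the 18 were higher, where 4.44% of all genes were. Both averages use the trans-fat/HFCS arrays, on which this list stood at 5.25 and 5.30. The skeletal muscle markers differed by a median of 0.05 between MSG and control. The tested neighbours of DIO2 in the cat gene order were ADCK1, NRXN3 and TSHR. They differed between MSG and control by 0.17, 0.31 and 0.28 on the log2 scale (limma adjusted p = 0.93, 0.89 and 0.85).

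DIO1, the usual liver deiodinase, held a steady level across diets. Its mean log2 intensity over 7 kept probe sets was 4.72 and 4.49 on control, 4.89 and 4.72 on MSG, 4.81 and 4.86 on trans-fat/HFCS and 4.77 and 4.59 on combined arrays. The control and MSG arrays touch at 4.72, and the diet means ran only from 4.60 to 4.84. The averaged MSG difference was 0.02 (95% confidence interval -0.25 to 0.30) and the averaged trans-fat/HFCS difference 0.06 (-0.22 to 0.33). For MSG against control the difference of DIO1 was 0.20 (-0.19 to 0.59).

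Within DIO1 the brightest probe set, 7901572, read 9.00 and 8.91 on control, 9.05 and 8.85 on MSG, 8.48 and 8.87 on trans-fat/HFCS and 8.74 and 8.72 on combined arrays. The arrays on the trans-fat/HFCS base were all below both controls on it. Over all kept probe sets both trans-fat/HFCS arrays were below in 23.5% and both combined arrays in 22.3%. Probe set 7901573 went the other way: it read 6.42 and 6.27 on control, 6.30 and 6.68 on MSG, 6.59 and 7.65 on trans-fat/HFCS and 7.16 and 7.11 on combined arrays. Its averaged trans-fat/HFCS difference was 0.71, with an adjusted p of 0.26 in the limma fit over all 128550 kept probe sets, so it was not called. On 7901572 that difference was -0.25, so the 2 probe sets opposed each other in direction. The other kept probe sets ran from -0.28 to 0.18, and the gene mean over all 7 differed by 0.06.

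DIO3, the inactivating deiodinase, could not be followed closely because its arrays scattered. Its mean over 2 kept probe sets was 3.87 and 3.77 on control, 4.41 and 2.77 on MSG, 4.03 and 4.67 on trans-fat/HFCS and 4.68 and 3.92 on combined arrays. The MSG arrays lay farther apart than the other 6 together, with an SD of 1.16. Most of that gap came from probe set 7976862, which read 5.82 and 3.06 on the MSG arrays and 4.97 to 5.70 on the other 6. All 4 arrays on the trans-fat/HFCS base exceeded both controls in the gene mean, and the averaged trans-fat/HFCS difference was 0.62 (95% confidence interval -0.14 to 1.38, limma adjusted p = 0.29). The interval for MSG against control ran from -1.31 to 0.85, which leaves room for a lower or a higher DIO3 level on MSG.

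TTR, transthyretin, is made by hepatocytes and carries thyroxine and retinol-binding protein in plasma. Its mean over 5 kept probe sets was 8.30 and 8.36 on control, 8.63 and 8.41 on MSG, 8.40 and 8.47 on trans-fat/HFCS and 8.47 and 8.28 on combined arrays. Both MSG arrays were above both controls, the nearer one by less than the gap between the MSG arrays. The difference of MSG from control was 0.19 (95% confidence interval -0.19 to 0.57), and the averaged MSG difference was 0.06 (-0.20 to 0.33). By probe set, both MSG arrays were above both controls in 3 of 5 (18.2% over all kept probe sets) and below in 1 (18.5%). The 1 below, 8020799, was dim, with a mean of 2.57 near the filter. The most intense, 8020796, read 10.98 and 11.05 on control, 11.26 and 11.31 on MSG, 11.14 and 11.29 on trans-fat/HFCS and 11.21 and 11.08 on combined arrays, a range within which all diets with an addition lay above control.

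SERPINA7, thyroxine-binding globulin, gave almost no usable signal. Of its 6 probe sets, 5 lay under the filter, and the kept one had a mean of 2.43, at the filter itself. That probe set read 2.54 and 2.65 on control, 2.39 and 2.39 on MSG, 2.37 and 2.31 on trans-fat/HFCS and 2.50 and 2.29 on combined arrays. Every other array lay below both controls, but the means of the 3 other diets (2.39, 2.34 and 2.39) were under the filter and the control mean (2.60) above it. The probe set thus passed through its control arrays, and that control is highest is partly fixed by the filter. The averaged MSG difference was -0.08 (95% confidence interval -0.33 to 0.18). Whether cat liver made little SERPINA7 or the human probes matched it poorly cannot be told apart here.

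THRSP, also called Spot 14, is a nuclear protein of fatty acid synthesis whose transcription in liver rises with thyroid hormone and with dietary carbohydrate. Its gene mean over 2 probe sets was 6.97 and 7.38 on control, 6.53 and 6.96 on MSG, 6.79 and 6.53 on trans-fat/HFCS and 7.05 and 6.54 on combined arrays. The diet means were 7.18 ± 0.29 on control, 6.74 ± 0.31 on MSG, 6.66 ± 0.19 on trans-fat/HFCS and 6.79 ± 0.36 on combined (SD, n = 2). Trans-fat/HFCS differed from control by -0.51 (95% confidence interval -1.07 to 0.04, limma adjusted p = 0.31), and the averaged MSG difference was -0.15 (-0.54 to 0.25).

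The 2 probe sets of THRSP differed. On 7942794 the intensities were 352 and 365 on control, 233 and 261 on MSG, 158 and 151 on trans-fat/HFCS and 236 and 222 on combined arrays. Every pair of arrays was tight, control was highest and trans-fat/HFCS lowest, and the MSG and combined arrays lay between them. On the log2 scale trans-fat/HFCS was lower than control by 1.22 (SE 0.23), or 2.32-fold, with a 95% confidence interval of -1.77 to -0.67. The adjusted p was 0.080 in the limma fit over all kept probe sets, in which 1% of probe sets passed for that comparison, so it was not called.

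On the other THRSP probe set, 7942795, the log2 intensities were 5.49 and 6.24 on control, 5.20 and 5.89 on MSG, 6.29 and 5.82 on trans-fat/HFCS and 6.22 and 5.28 on combined arrays. The diets overlapped throughout, and the wide pairs of this probe set set the error of the gene mean. When the brightest kept probe set stood for each gene, THRSP passed the threshold for trans-fat/HFCS against control (-1.22, adjusted p = 0.012) and for the averaged trans-fat/HFCS difference (-0.66, adjusted p = 0.017), both in limma. That average rested on the arrays with the muscle signal: combined minus MSG on 7942794 was -0.11 (95% confidence interval -0.66 to 0.44), the value left without both trans-fat/HFCS arrays. The call on THRSP therefore depended on how its 2 probe sets were combined.

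**Figure D3:**
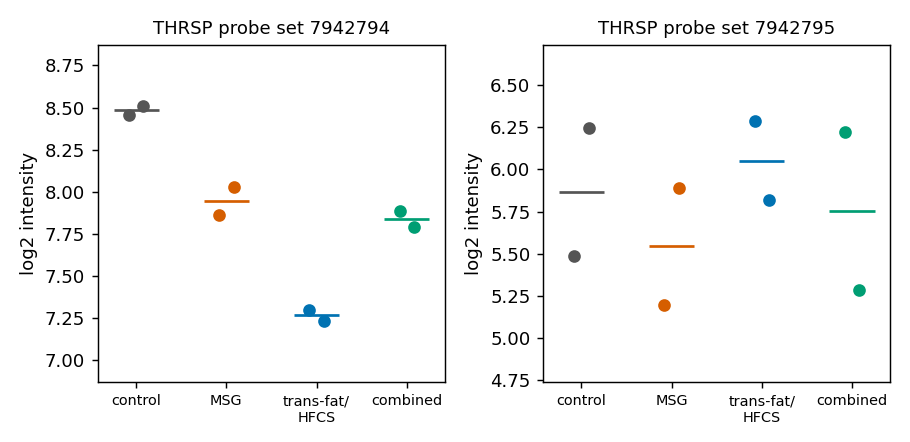
Log2 intensity (y axis) of the 2 THRSP probe sets on the 8 arrays by diet (x axis). On 7942794 the 2 trans-fat/HFCS arrays, at 7.30 and 7.24, lie below all others and the 2 control arrays, at 8.46 and 8.51, above them, while on 7942795 the diets overlap.

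Across the 5 members other than DIO2 no gene passed the threshold in any of 8 comparisons. Of these 40 limma tests 0 were called and 0 had an unadjusted p under 0.05, with a smallest adjusted p of 0.29. Over all 17910 genes the share called was 0.329% for the averaged MSG difference, 7.66% for the averaged trans-fat/HFCS difference and 0.151% for the interaction. It was 0.296% for MSG minus control, 2.48% for trans-fat/HFCS minus control, 1.16% for combined minus control, 1.66% for combined minus MSG and 0.179% for combined minus trans-fat/HFCS. Against these shares 0 of 5 genes is no result about the members. For the averaged trans-fat/HFCS difference 24.5% of all genes had an unadjusted p under 0.05. At the level of probe sets, 136 tests of 17 kept probe sets gave 0 calls and 9 unadjusted p-values under 0.05 (6.62%), the smallest being that of THRSP 7942794. In that fit the shares called were 0.163%, 2.71% and 0.0521% of all kept probe sets for the averaged MSG difference, the averaged trans-fat/HFCS difference and the interaction. In the 5 comparisons of single diets, in the order above, they were 0.125%, 1%, 0.07%, 0.499% and 0.0793%. None of the 5 genes had an interaction whose confidence interval left out 0; the values were -0.36 for DIO1, 0.18 for DIO3, -0.25 for TTR, 0.27 for SERPINA7 and 0.56 for THRSP.

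**Figure D4:**
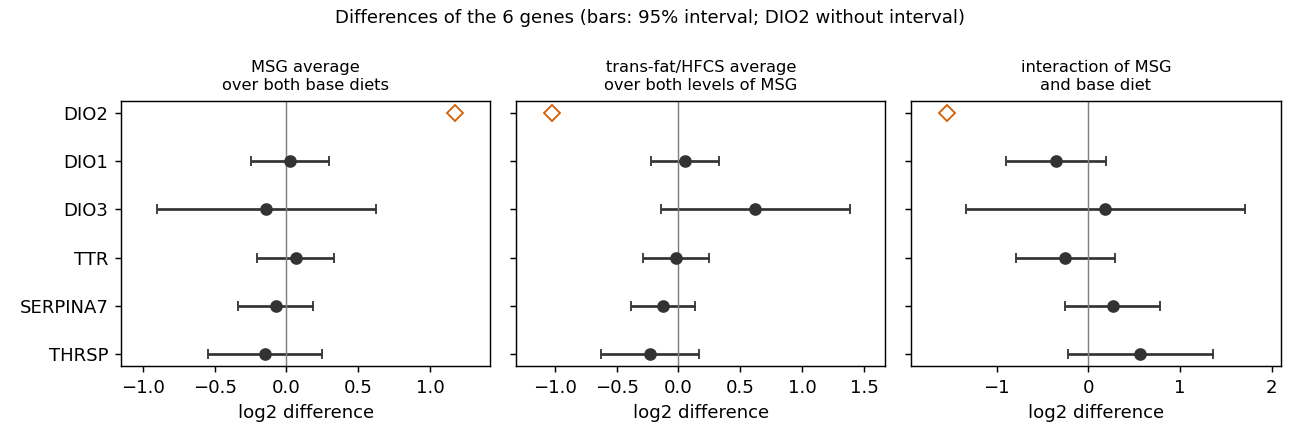
Log2 differences (x axis) of the 6 genes for the averaged MSG difference, the averaged trans-fat/HFCS difference and the interaction. Bars are 95% confidence intervals, and DIO2 is drawn without one. DIO2 lies at 1.17, -1.02 and -1.54 in that order, and the intervals of the other 5 genes all cross 0.

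Around these 6 genes, 7 lists of the pathway were followed. They were chosen with earlier results of these data known, and are described by counts and medians beside all tested genes. The medians of all tested genes were 0.00 for the averaged MSG difference and 0.02 for the averaged trans-fat/HFCS difference. Unadjusted limma p-values under 0.05 covered 7.91% of all genes for the averaged MSG difference and 24.5% for the averaged trans-fat/HFCS difference. For the interaction the share was 9.07%.

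The nuclear receptors of thyroid hormone and their coregulators had 1 call, a share no larger than that of all genes. Of 17 tested genes 0 passed for the averaged MSG difference (0 with an unadjusted p under 0.05, limma), and 1 passed for the averaged trans-fat/HFCS difference, where 7.66% of all genes did: NCOA1, a coactivator, was lower by 0.59 (SE 0.12, limma adjusted p = 0.025). That call held only without control 1 or combined 1 among the 8 fits that each left out 1 array (limma adjusted p = 0.044 to 0.095). The receptor THRA stood at -0.44 (adjusted p = 0.11, limma) and the receptor THRB at -0.13. For MSG the smallest p-values were those of RXRB, a partner of these receptors, at 0.26 and of CARM1, a coactivating methyltransferase, at -0.26. The interaction had 0 calls and 0 unadjusted p-values under 0.05, with RXRB at 0.41 and NCOA2, another coactivator, at -0.46. The list medians were 0.03 for MSG, -0.15 for trans-fat/HFCS and -0.04 for the interaction.

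The proteins that bring the hormone in, bind it or conjugate it gave no call. Of 12 tested membrane transporters 0 passed in the averaged MSG difference, the averaged trans-fat/HFCS difference or the interaction (3, 1 and 1 with an unadjusted p under 0.05, limma). SLC16A10, an aromatic amino acid and iodothyronine transporter, stood at -0.35 for MSG, and SLC3A2, the heavy chain of amino acid transporters that also move iodothyronines, at 0.48. SLC17A4 stood at -0.62 and SLCO1B3, a hepatocyte organic anion transporter, at -0.47 for trans-fat/HFCS, and SLCO1A2 at -0.69 and SLCO1B3 at -1.06 for the interaction. The list medians were 0.04, -0.04 and 0.01. Of 13 binding and conjugation genes 0 passed in any of the 3 comparisons (1, 3 and 1 unadjusted). STS, the steroid sulfatase, stood at -0.20 for MSG and -0.44 for trans-fat/HFCS, and UGT1A1, which glucuronidates thyroxine and shares exons with its family so that its value is uncertain, at -0.59 for MSG and 1.01 for the interaction. ARSB, an arylsulfatase, stood at -0.41 for trans-fat/HFCS and CRYM, a cytosolic binding protein of triiodothyronine, at -0.51 for the interaction. The list medians were 0.04, 0.00 and -0.02.

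The machinery that makes selenoproteins and turns DIO2 over was likewise without a call. Of its 16 tested genes 0 passed in any of the same 3 comparisons (1, 2 and 0 unadjusted, limma). WSB1, the adaptor of a ubiquitin ligase that marks DIO2 for degradation, stood at 0.34 for MSG, and MARCH6, another ligase of DIO2, at -0.17. USP33, a deubiquitinase that rescues DIO2, stood at -0.34 and SEPSECS, which makes selenocysteinyl-tRNA, at 0.29 for trans-fat/HFCS. EEFSEC, the elongation factor for selenocysteine, stood at 0.38 and SEPHS2, which makes selenophosphate, at 0.46 for the interaction. The list medians were 0.04, 0.07 and 0.18.

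Among 27 tested liver genes known to respond to thyroid hormone, 1 rose and 0 fell in the averaged MSG difference, where 0.0447% of all genes rose and 0.285% fell: CYP7A1, the first step of bile acid synthesis from cholesterol, by 0.85 (SE 0.13, limma adjusted p = 0.032). It read 5.34 and 5.43 on control, 6.26 and 6.04 on MSG, 3.73 and 3.73 on trans-fat/HFCS and 4.50 and 4.84 on combined arrays, so the MSG arrays were higher on both bases. CPT1A, the entry step of mitochondrial fatty acid oxidation, stood at 0.66 (SE 0.12) with an adjusted p of 0.077 in limma. Unadjusted p-values under 0.05 numbered 7 for MSG, 15 for trans-fat/HFCS and 6 for the interaction (limma), where 7.91%, 24.5% and 9.07% of all genes had one. This MSG call held without combined 1 but was lost without each of the 7 other arrays in turn (limma adjusted p = 0.043 to 0.18 over the 8 fits), and with the array number as a block (adjusted p = 0.077); with no filter on dim probe sets the value was 0.48.

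In the averaged trans-fat/HFCS difference 2 of the 27 rose, 7 fell and 18 did not pass, where 4.44% and 3.22% of all genes did (limma). CYCS, cytochrome c, rose by 1.08 and ANGPTL4, an inhibitor of lipoprotein lipase, by 0.61. CYP7A1 fell by 1.57, ACLY, which makes cytosolic acetyl-CoA, by 0.94, MID1IP1, a relative of THRSP, by 0.79, and ME1, the malic enzyme classically used as a readout of thyroid hormone, by 0.64. CPT1A fell by 0.60, G6PC, glucose 6-phosphatase, by 0.56 and FASN, fatty acid synthase, by 0.49. The fallen genes include lipogenic enzymes and also CPT1A and CYP7A1. The interaction had 0 calls, with CPT1A at -1.08 and ACACA, acetyl-CoA carboxylase, at 0.99, and the list medians were 0.05, -0.07 and -0.08 for the 3 comparisons. ME1 stood at 0.19 and CPT1A at 0.23 when the brightest probe set was used, so neither direction is firm. With no filter on dim probe sets ANGPTL4, which has 1 kept probe set, stood at 0.0044 (limma adjusted p = 0.98), CYP7A1 at -0.87 and FASN at -0.26, and with the median of the probe sets CYCS stood at 0.63. Without both trans-fat/HFCS arrays 0 rose and 2 fell, and with the median of the probe sets also 0 and 2. The calls on CYP7A1, ACLY and CYCS held in each fit that left out 1 array, and that on MID1IP1 ended without control 2 (limma adjusted p = 0.054). The call on ME1 held only without control 2, combined 1 or combined 2, on CPT1A only without combined 1 or combined 2, on ANGPTL4 only without MSG 2 or combined 2 and on G6PC only without MSG 2, and the call on FASN ended without any 1 array. Their adjusted p-values over these limma fits ran up to 0.081, 0.087, 0.095, 0.14 and 0.14.

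The receptors, kinase subunits and transcription factors known to act on DIO2 transcription had 0 calls among 23 genes in the averaged MSG difference (2 with an unadjusted p under 0.05, limma). In that contrast PRKAR1A and PRKAR2B, regulatory subunits of the cAMP-dependent kinase, stood at 0.37 and -0.35. In the averaged trans-fat/HFCS difference GATA2 rose by 0.55 and FOXO3 by 0.50, and PRKACB, a catalytic subunit of that kinase, fell by 0.64, FOXO1 by 0.46 and CREM, a cAMP-responsive factor, by 0.44. These were 2 of 23 higher and 3 of 23 lower, where 4.44% and 3.22% of all genes were. With no filter on dim probe sets GATA2 stood at 0.14, FOXO3 at 0.21 and CREM at -0.24. The call on PRKACB held only without combined 1 and that on GATA2 only without combined 2, and those on FOXO1, FOXO3 and CREM ended without any 1 array (limma adjusted p up to 0.11, 0.12, 0.15, 0.12 and 0.13 in that order of genes). None of the 5 calls was made without both trans-fat/HFCS arrays. The interaction had 0 calls (2 unadjusted), with the adrenergic receptors ADRB1 at 0.67 and ADRA1B at -0.58, and the list medians were 0.01, -0.07 and 0.05.

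Among 24 tested genes known to respond to cAMP in liver, 5 rose, 1 fell and 18 did not pass on MSG against control (limma). Over all genes 0.0503% rose and 0.246% fell. An unadjusted limma p under 0.05 was found for 12 of the 24 and for 7.64% of all genes. Several of the 24 genes were listed with their changes already known, so the counts are no evidence about the group. The list median was 0.23. Follistatin, FST, an inhibitor of activin, read 4.34 and 4.24 on control, 6.92 and 6.88 on MSG, 5.94 and 6.27 on trans-fat/HFCS and 6.35 and 6.38 on combined arrays. Every diet with an addition was thus above control for FST, and MSG most.

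SLC25A25, a mitochondrial ATP and phosphate carrier, read 4.53 and 4.43 on control, 6.79 and 6.39 on MSG, 4.18 and 4.23 on trans-fat/HFCS and 4.34 and 4.45 on combined arrays. As in DIO2, both MSG arrays were above all others and both trans-fat/HFCS arrays below all others, while the combined mean lay below control and not above it. The rises on MSG against control were 2.61 for FST, 2.11 for SLC25A25, 1.60 for the orphan receptor NR4A2, 1.49 for the phosphatase DUSP1 and 1.20 for CPT1A, and FOS, an immediate early gene, fell by 1.19. These 6 genes were named for this contrast after their values were seen. The calls on FST and SLC25A25 held in each fit that left out 1 array. NR4A2 was lost without control 2, MSG 1 or MSG 2 (limma adjusted p up to 0.18), DUSP1 without any control or MSG array (up to 0.11), and CPT1A and FOS without any array but a combined one (up to 0.29 and 0.36). With the brightest probe set NR4A2 stood at 0.22 and CPT1A at 0.10, and with the median of the probe sets FOS at -0.79.

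In the averaged MSG difference 2 of the 24 cAMP genes rose, FST by 1.44 (SE 0.12) and SLC25A25 by 1.15 (SE 0.13), and FOS fell by 0.97 (SE 0.13). The FST call held in each fit that left out 1 array. That on SLC25A25 was lost without control 1, control 2, MSG 1 or trans-fat/HFCS 1 (limma adjusted p up to 0.072), and that on FOS without any array but a combined one (up to 0.13). Compared with chow, the MSG difference on the trans-fat/HFCS base was smaller for FST and SLC25A25 and opposite for DUSP1. DUSP1 read 4.90 and 5.00 on control, 6.35 and 6.53 on MSG, 4.56 and 4.68 on trans-fat/HFCS and 3.76 and 3.92 on combined arrays. The interaction was negative for 3, where 0.0893% of all genes were called with that sign. It was -2.34 for FST, -2.27 for DUSP1 and -1.92 for SLC25A25 (limma adjusted p = 0.013, 0.013 and 0.036). FST and DUSP1 lost this call without any control or MSG array (adjusted p up to 0.10 in both), and SLC25A25 without any 1 array (up to 0.19) and with the array number as a block (0.074), all in limma.

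In the averaged trans-fat/HFCS difference 1 of the 24 cAMP genes rose and 7 fell, where 4.44% and 3.22% of all genes did. FST rose by 0.64; the genes that fell were DUSP1 by 1.47, SLC25A25 by 1.23, PDE4B, a cAMP phosphodiesterase, by 0.82, NR4A2 by 0.80, and CPT1A, G6PC and CREM as given above. DUSP1 and SLC25A25 kept this call in each fit that left out 1 array. PDE4B lost it without any array but a combined one (limma adjusted p up to 0.089), NR4A2 without control 1, MSG 1 or trans-fat/HFCS 2 (up to 0.067), and FST without any array but trans-fat/HFCS 1 or a combined one (up to 0.073). FST stood at -0.53 when both trans-fat/HFCS arrays were left out, the opposite sign, NR4A2 at 0.13 with the brightest probe set, and PDE4B at -0.32 with no filter on dim probe sets.

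The genes whose pattern was most like that of DIO2 were found by Pearson correlation of gene means over the 8 arrays, among 14612 named genes with at least 2 kept probe sets. The 10 highest were CPT1A (r = 0.98, Spearman's rho = 0.69), SLC25A25 (0.98, 0.83), NR4A2 (0.96, 0.71), PLXNB1 (0.95, 0.74), PTP4A1 (0.94, 0.74), NOLC1 (0.94, 0.88), ZNF25 (0.94, 0.64), SPIB (0.93, 0.74), RNF152 (0.93, 0.93) and LSM3 (0.93, 0.60). In each of them the 2 MSG arrays were the highest, and rho, which depends on the order of the other 6 arrays too, was lower than r in each of them. Their rise from control to MSG ran from 0.31 for PLXNB1 to 2.11 for SLC25A25. The other members were less like DIO2: r was 0.45 for TTR, 0.19 for DIO1, -0.14 for THRSP, -0.18 for SERPINA7 and -0.52 for DIO3. These arrays are 4 pairs of a diet, so the correlations are a description.

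**Figure D5:**
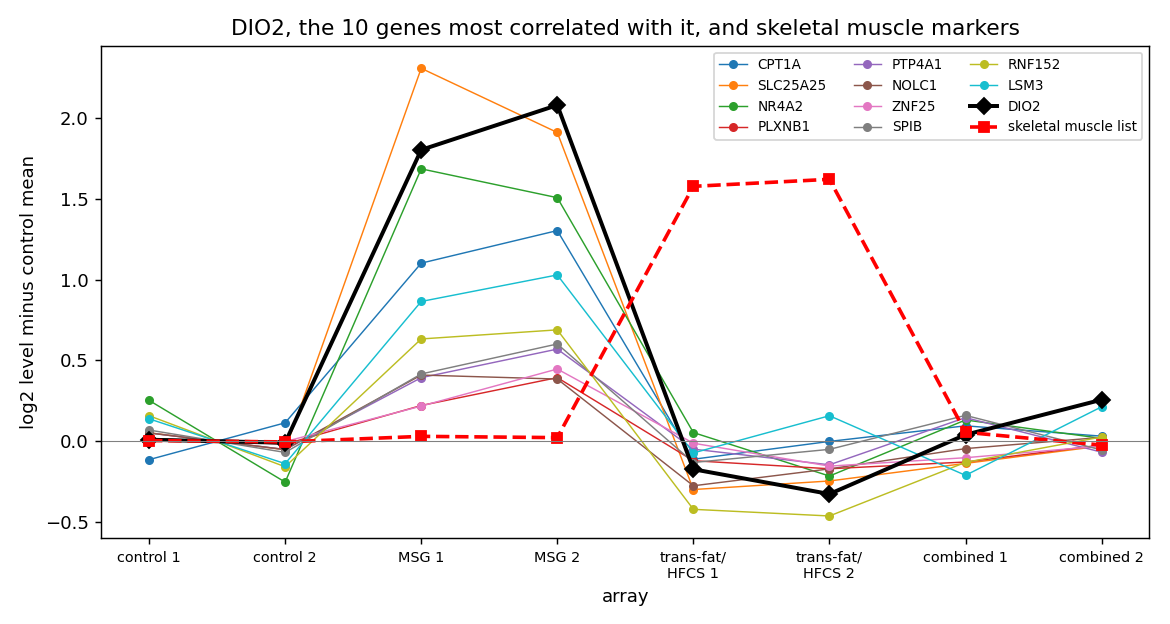
Log2 level minus the control mean (y axis) of DIO2, of the 10 genes most correlated with it and of the skeletal muscle markers, over the 8 arrays in diet order (x axis); lines join arrays for reading only. The 2 MSG arrays are the highest of DIO2 and of each of the 10 genes, the muscle markers are highest on the trans-fat/HFCS arrays, and SLC25A25 with a rise of 2.11 is closest to DIO2 with 1.94 in size.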

How the data were processed

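Liver RNA (250 ng per array) was labelled for human HuGene 1.0 ST arrays, per the labels' protocols. The authors deposited normalized intensity values, linear in scale, for each probe set. Per the submitters' processing notes, GCRMA, Partek and hg19 were used, with no version or role given. The deposited intensities were log2 transformed here. 

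Probe sets whose mean exceeded the median of all (log2 2.43, intensity 5.38) were kept (128550), and those with exactly 1 gene were averaged into 17910 genes. A 4-group model over all 8 arrays was fitted with limma 3.58.1 in R 4.3.3, for genes and again for probe sets, with 4 residual degrees of freedom, two-sided tests and Benjamini-Hochberg adjustment over all genes or probe sets, at a threshold of 0.05. Averaged differences set 4 arrays against 4; the interaction is combined minus trans-fat/HFCS, less MSG minus control. Single comparisons of 2 arrays against 2 allow an exact permutation p no smaller than 0.333, so only the fit across genes was used. Errors of differences are limma's moderated standard errors.

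Members and lists were chosen with earlier results of these data known. A list gene was named if it passed in the averaged MSG difference, the averaged trans-fat/HFCS difference or the interaction, or had 1 of the 2 smallest p-values of its list there. The 10 genes most correlated with DIO2 were taken among genes with at least 2 kept probe sets, leaving out LOC, orf, olfactory receptor and non-coding names. Array numbers did not pair the diets (r of deviations -0.056 to 0.043 over 6 pairs of diets). The scripts were tested on simulated data. A 2-fold change was called in 94% of changed genes for the averaged MSG difference and 95% for the averaged trans-fat/HFCS difference. For the interaction this was 10%, and 94% for a 4-fold change. A lack of calls for the interaction therefore says little about changes of 2-fold. Alternatives were other filters, summaries of probe sets, an added constant, other variance models, a replicate block and leaving out arrays or probe sets. Cat gene order came from a table of assembly F.catus_Fca126_mat1.0, in which all 6 genes have an entry; no coordinates or sequences are given. Some listed genes were not analysed here. Precision is limited by the number of arrays.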

Additional observations from a re-analysis of the deposited data

Results flagged for a closer look

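Probe set 7980494 of DIO2, which lies under the signal filter and enters no gene mean, had its lowest MSG array 1.58 above its highest control array on the log2 scale.

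For 6 further values the effect of one diet factor pointed opposite ways at the 2 levels of the other, with no overlap of arrays. The effect of MSG did so for the gene DIO1, its probe set 7901576, DIO2 probe set 7980488 and THRSP probe set 7942794. The effect of trans-fat/HFCS did so, without and with MSG, for DIO2 probe set 7980495 and TTR probe set 8020796. Over all kept probe sets, both MSG arrays lay above both control arrays in 18.2% and below in 18.5%. Both combined arrays lay above both trans-fat/HFCS arrays in 18.6% and below in 17.9%. For the base diet these shares were 22.6% and 23.5% without MSG and 21.7% and 21.4% with it. The share with opposite separation was not counted, so the 6 values are no result about the members. The interaction was -0.36 for the gene DIO1, -2.54 for its probe set 7901576, -0.34 for TTR probe set 8020796 and 1.11 for THRSP probe set 7942794, and none of these 4 passed the limma threshold. It was -2.64 for DIO2 probe set 7980488 and -4.24 for DIO2 probe set 7980495. There it was not tested, because it rests on the MSG arrays for which DIO2 was chosen. DIO1 probe set 7901576 is 1 of the 7 averaged into the gene, so gene and probe set are not separate observations. Probe set 7901576 read 2.29 and 2.13 on control, 4.55 and 2.48 on MSG, 3.65 and 2.76 on trans-fat/HFCS and 1.83 and 2.10 on combined arrays. Its means on control (2.21) and combined (1.97) lay under the filter, and those on MSG (3.51) and trans-fat/HFCS (3.21) above it. It thus passed through the diets whose height makes its interaction negative, so that sign is partly fixed by the filter. In the gene mean of DIO1 the control and MSG arrays touch at 4.72. Groups of 2 arrays are too small for a search for outlying samples.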

How the results depend on the processing

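The averaged MSG difference of DIO2, 1.17 on the log2 scale, stayed positive in each setting run. It was 0.92 with no filter on dim probe sets, 1.71 with a filter at the 75th percentile, 1.71 with the median and 2.52 with the brightest of the kept probe sets, and 0.73 on log2(intensity + 16). Chosen after seeing the data, it was 1.94 without both trans-fat/HFCS arrays, 1.42, 1.43 and 1.36 without probe sets 7980488, 7980490 and 7980491, and 0.91 and 0.95 without 7980493 and 7980495. Leaving out 1 array gave 1.10 to 1.24. For the averaged trans-fat/HFCS difference DIO2 passed the threshold in limma, but 0 members did in a model with 2 factors and no interaction; with the brightest probe set DIO2 did not (-0.84, adjusted p = 0.23) and THRSP did.

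Among DIO2 and the calls on list genes, the values that changed sign were trans-fat/HFCS minus control for DIO2 (1.27 with the brightest probe set) and the averaged trans-fat/HFCS differences of NR4A2 (0.13 with the 75th percentile filter and with the brightest probe set), ME1 (0.19) and CPT1A (0.23), both with the brightest probe set, and FST (-0.53 without both trans-fat/HFCS arrays). Among list values that were named but not called, 5 changed sign: CARM1 for MSG (0.21) and the CPT1A interaction (0.33) with the brightest probe set, MARCH6 for MSG (0.12) and SEPSECS for trans-fat/HFCS (-0.04) with the median of the probe sets, and STS for MSG (0.01) with no filter. The cause was not tested. For the 5 members other than DIO2, 644 values under alternatives gave 2 new calls, both THRSP with the brightest probe set, and 54 changes of sign among values that were never called.

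Genes called over the whole array moved more. For the averaged MSG difference 59 became 12 to 68 with 1 array left out and 1 to 156 under the other settings. For the averaged trans-fat/HFCS difference 1372 became 443 to 1234 and 233 to 2413, for the interaction 27 became 5 to 20 and 5 to 83, and for MSG minus control 53 became 13 to 55 and 15 to 137. With the replicate number as a block the DIO2 difference was 1.17 again, and the genes called were 53 for the averaged MSG difference, 11 for the interaction and 34 for MSG minus control. The arrays share only a number, so a call lost under the block is not a weaker effect. With 2 arrays per diet and dim probe sets near the filter in DIO2 and SERPINA7, small differences were not detectable.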
